A study of Mus musculus with 6 samples.

Results

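The enzymes that feed, turn and drain the tricarboxylic acid (TCA) cycle, and those that make glutamine, proline and the branched-chain amino acids' keto acids, were followed in mouse Neuro2a cells given D-serine. They were chosen as 33 gene symbols, all of which were found among the 24391 genes of the count table. Neuro2a is a mouse neuroblastoma cell line, and D-serine, the mirror-image form of L-serine, acts in the brain at NMDA receptors. All cultures were moved from D-MEM to a medium written as D-MEM(-SG), both with 10% fetal bovine serum. The control group (3 libraries) received vehicle and the D-serine group (3 libraries) received 5 mM D-serine, and poly(A) RNA was taken after 18 h. The labels name 1 cell line and give each library a number within its group, but do not say whether the libraries came from separate cultures, so p-values measure only the spread between these libraries.

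The cycle oxidises acetyl groups to carbon dioxide and supplies reduced cofactors to the respiratory chain, while its intermediates leave to build lipids and amino acids. Pyruvate enters as acetyl-CoA through pyruvate dehydrogenase or as oxaloacetate through pyruvate carboxylase. Glutamine carbon enters as alpha-ketoglutarate through glutamate dehydrogenase or the transaminases. Glutamate is also the starting point of proline. In proliferating cells these routes are known for supplying aspartate, citrate and NADPH for growth.

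The libraries held 32518483 to 40024265 counts. D-serine replicate 1 stood apart from the other libraries: its counts differed from D-serine replicate 2 by a chi-square of 17.7 per degree of freedom, against 3.88 at the closest pair within a group. Long genes read lower in it, with a slope of -0.0717 log2 units per doubling of exon length. Control slopes lay between 0.0152 and 0.0356, while the other D-serine libraries had 0.0058 (replicate 2) and -0.0040 (replicate 3). Every D-serine slope was thus below every control slope. Removing the length trend can therefore also remove part of a difference between the groups, and how much was not tested. Values without D-serine replicate 1 or without the length trend are given beside several of the results. Of 8 neuronal and sympathoadrenal marker genes, 6 reached 1 CPM (counts per 1000000 of the scaled library size) in at least 1 library, and Nefm and Nefl did not. The summed level of the 8 markers was 1567 to 1648 CPM in control and 1677 to 1757 CPM with D-serine, without overlap, and the part of this in the results was not tested. Of these markers, the tubulin gene Tubb3 rose (log2 fold change 0.25, edgeR adjusted p = 0.0148). For the other cell types, 4 markers each were summed. Astrocyte markers came to 0.0620 to 0.376 CPM in control and 0.255 to 0.517 CPM with D-serine, with none of the 4 reaching 1 CPM and Aqp4 at 0. Microglia and macrophage markers came to 0.566 to 0.775 CPM in control and 0.174 to 0.354 CPM with D-serine, without overlap and again with 0 of 4 reaching 1 CPM. Oligodendrocyte markers, mostly Mbp, came to 15.65 to 16.55 CPM and 15.07 to 16.1 CPM, fibroblast markers to 5.70 to 6.09 CPM and 4.62 to 6.90 CPM, and endothelial markers to 3.99 to 4.59 CPM and 3.60 to 4.71 CPM. Mag and Kdr had no count in any library. The part of these markers in the results was not tested. In these bulk libraries, fewer cells of one kind and less RNA per cell cannot be told apart.

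Of the 33 enzyme genes, 32 were expressed highly enough to be tested. With D-serine the 4 genes Gpt2, Aldh18a1, Bcat1 and Me1 fell by 9.63% to 11.7%, and the single gene Idh3g rose by 21.0%. The 5 called genes are 15.6% of the 32, against 9.74% of all 13366 genes tested (edgeR quasi-likelihood test, adjusted p under 0.05). By direction, all genes tested gave 4.84% higher and 4.90% lower. The median log2 fold change of the 32 was -0.022, beside 0.0053 for all genes tested. It was above 0 in 12 and below 0 in 20 of the 32, and above 0 in 51.5% of all genes tested. An unadjusted p under 0.05 was found for 10 of the 32 and for 28.2% of all genes tested. These are small changes: no member differed by more than 0.28 on the log2 scale. For 15 of the 32 genes every D-serine library lay on one side of every control library, 3 of them higher and 12 lower with D-serine, against 32.9% of all genes tested.

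The division by direction depended on how libraries were scaled. Upper quartile scaling gave 3 higher members (Idh3g, Idh2 and Mdh1) and 0 lower, and library totals gave the same 3 higher and 1 lower, Gpt2. In these fits 9.92% and 10.1% of all genes passed. Under these scalings the members' median was 0.0079 and 0.0073, beside 0.035 for all genes under both. All 5 called genes kept the sign of their change in all 17 alternatives. Without control replicate 1, 2 or 3, or without D-serine replicate 3, edgeR called 0 members, with 10, 9, 8 and 10 at an unadjusted p under 0.05. In those 4 fits 0.921%, 0.501%, 3.34% and 2.15% of all genes passed the adjusted threshold. The reported fit had 10 members and 28.2% of all genes at an unadjusted p under 0.05. The share of all genes at that level is not given for these 4 fits.

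**Figure D1:**
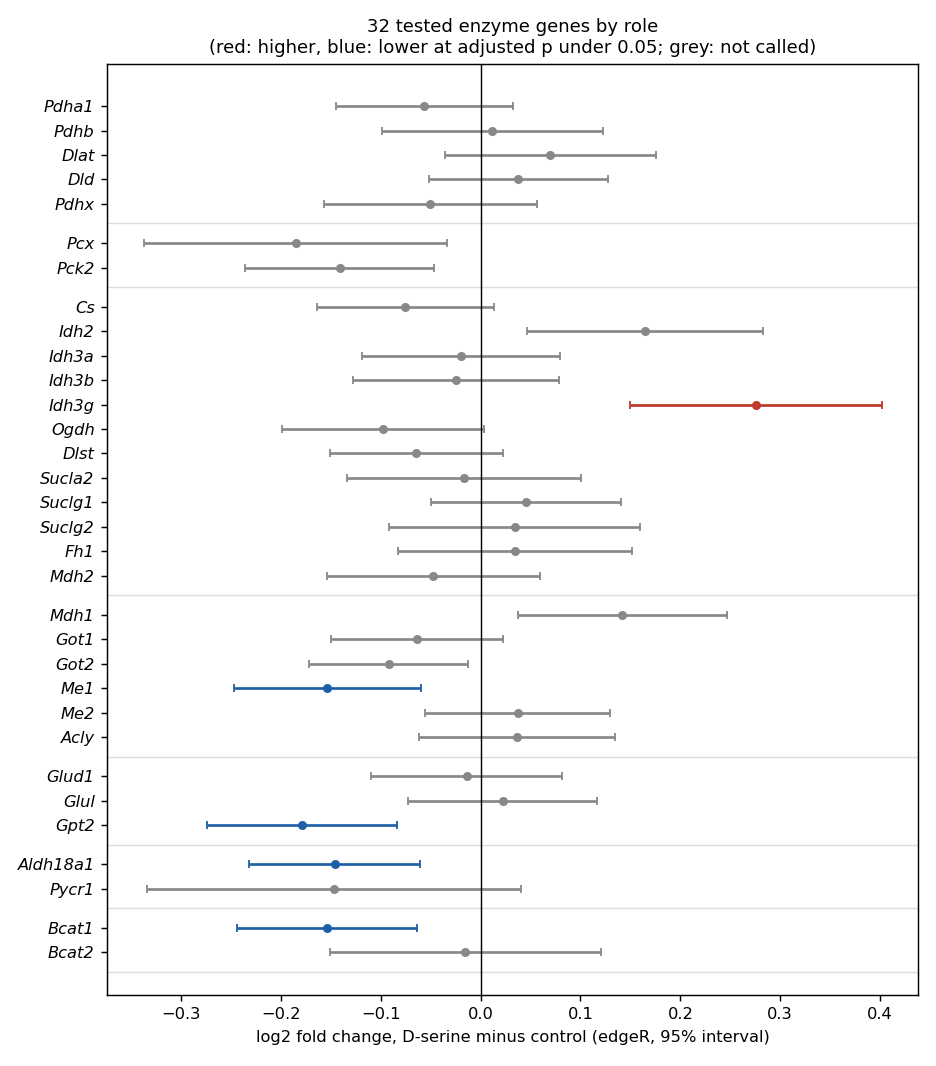
Log2 fold change of each of the 32 tested enzyme genes (x axis, D-serine minus control, edgeR estimate with its 95% interval), in rows grouped by role from pyruvate dehydrogenase at the top to the branched-chain transaminases at the bottom. Idh3g (red, 0.28) is the 1 gene called higher, and Me1, Gpt2, Aldh18a1 and Bcat1 (blue, -0.18 to -0.15) are those called lower.

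Gpt2 encodes the mitochondrial alanine transaminase, which moves an amino group between glutamate and pyruvate and yields alpha-ketoglutarate. It lies on chromosome 8 from 88016516 to 88051457 on the plus strand, in the coordinates of the deposited table. Its level was 193, 196 and 209 CPM in control replicates 1 to 3 and 176, 176 and 177 CPM in D-serine replicates 1 to 3. All D-serine libraries lay below all control libraries, and the control libraries spread more widely. The mean fell from 199 ± 8.65 to 176 ± 0.95 CPM (SD, n = 3 each), a log2 fold change of -0.18 (SE 0.044, adjusted p = 0.0262 by edgeR). Over the 17 alternatives its adjusted p ran from 0.00068 to 0.103, and 11 kept the call.

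Glutamate dehydrogenase (Glud1), which releases the amino group of glutamate, held 105, 104 and 104 CPM in control and 106, 99.9 and 103 CPM with D-serine. Glutamine synthetase (Glul) held 152, 150 and 157 CPM and 161, 152 and 153 CPM. Neither was called, and their 95% intervals on the log2 scale were -0.11 to 0.08 and -0.07 to 0.12. The ratio of Glul to Glud1 counts per base was 1.63 to 1.70 in control and 1.67 to 1.71 with D-serine (exact two-sided permutation p = 0.2, and 0.286 after Benjamini-Hochberg adjustment over the 10 enzyme pairs compared). With groups of 3 this exact test cannot go below 0.1, and adjusted values for the other pairs are over the same 10. Glul shares 108 exonic bases with Mir8114, which had no count.

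Aldh18a1 encodes the enzyme that turns glutamate into pyrroline carboxylate, the committed step of proline and ornithine synthesis. It lies on chromosome 19 from 40624747 to 40662953 on the minus strand. Control replicates 1 to 3 held 448, 454 and 473 CPM and D-serine replicates 1 to 3 held 410, 417 and 415 CPM. All D-serine libraries lay below all control libraries. The mean fell from 458 ± 12.7 to 414 ± 3.53 CPM (SD, n = 3 per group). By edgeR this was a log2 fold change of -0.15 with an SE of 0.040 and an adjusted p of 0.0365. The alternatives gave adjusted p-values from 0.00119 to 0.131, and 10 of 17 kept the call.

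Pycr1 encodes a mitochondrial reductase that completes proline synthesis. Pycr1 held 35.9, 33.9 and 39.0 CPM in control and 27.97, 34.7 and 35.6 CPM with D-serine. The groups overlapped, the lowest value was that of D-serine replicate 1, and the difference was not called (log2 fold change -0.15, 95% interval -0.33 to 0.04, edgeR adjusted p = 0.290). Without D-serine replicate 1 its log2 fold change was -0.04. Pycrl, a cytosolic relative, was not called (log2 fold change 0.05, edgeR adjusted p = 0.630), and the proline-degrading Prodh and Aldh4a1 stood near or below 1 CPM, at 1.34 and 0.458 CPM in control.

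**Figure D2:**
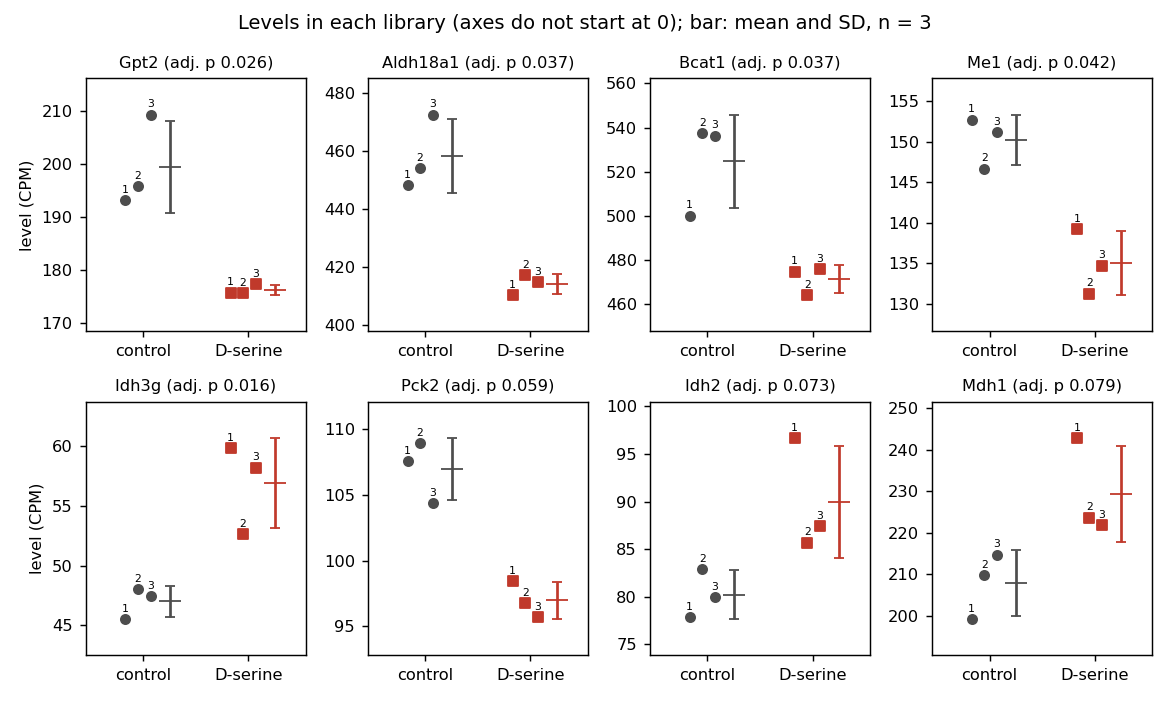
Level in CPM (y axis, not starting at 0) of the 5 called genes and of the 3 with the next smallest p, in control (grey circles) and D-serine (red squares) libraries, numbered by replicate, with mean and SD of n = 3. In all 8 panels the groups do not overlap, and for Idh3g, Idh2 and Mdh1 D-serine replicate 1 is the highest library.

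Promoter letters were read because Aldh18a1, Pycr1, Pck2 and Gpt2 are generally described as targets of ATF4, a transcription factor of the amino acid response. ATF4 binds a composite element, here searched on both strands as TGATGNAA. RefSeq promoter windows of build GRCm38.p6, from 250 bases before to 50 bases after the gene start, were at hand for 31 of the 33 genes (40 windows). The element was found in 4 of these windows and in 3.97% of the 32851 windows of all genes. In Pycr1, Pck2 and Got1 it lay at nearly the same distance, beginning at base -103, -103 and -102 from the start, and the remaining match was in Me3, which had 4 counts in all 6 libraries together. The stretches from base -150 to -51 are shown for those 3 genes and for the called genes Aldh18a1 and Gpt2, with the element, and the E-box CACGTG of Aldh18a1, in capitals.
Pycr1: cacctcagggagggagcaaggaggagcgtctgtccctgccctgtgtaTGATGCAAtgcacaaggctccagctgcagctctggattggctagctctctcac
Pck2: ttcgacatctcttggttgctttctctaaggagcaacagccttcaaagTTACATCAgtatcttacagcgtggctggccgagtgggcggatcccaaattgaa
Got1: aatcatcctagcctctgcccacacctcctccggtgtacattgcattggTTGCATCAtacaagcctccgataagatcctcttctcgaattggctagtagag
Aldh18a1: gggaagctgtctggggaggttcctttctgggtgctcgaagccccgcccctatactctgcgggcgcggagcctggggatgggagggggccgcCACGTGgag
Gpt2: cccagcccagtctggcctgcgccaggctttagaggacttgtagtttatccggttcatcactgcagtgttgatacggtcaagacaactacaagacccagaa

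They lie at chr11:120643799-120643898 (minus strand), chr14:55540116-55540215 (plus), chr19:43524656-43524755 (minus), chr19:40588514-40588613 (minus) and chr8:85492426-85492525 (plus). Pck2 and Got1 carry the element on the opposite strand to the gene, so it reads there as its reverse complement. None of the 5 called genes had a TGATGNAA match in its window. The E-box, the site of MYC and related factors, stood in 5 of the 40 windows, those of Aldh18a1, Pcx and 3 start sites of Ogdh, against 7.15% of all windows; 2 of the Ogdh windows share 1 site. The core site AAGGTCA of estrogen-related receptors was found in Got1 and Ogdh (2 windows, 4.72% of all windows). The sterol element TCACNCCAC was found in 0 of the 40 and in 1.24% of all. Matches of different motifs did not overlap in any of these windows.

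All 4 members on the ATF4 list had a log2 fold change below 0, from -0.18 to -0.14, and 2 of them, Gpt2 and Aldh18a1, were called, against 9.74% of all genes. The list was chosen with earlier results of these libraries known, lower ATF4 targets among them, so its direction is no separate support. Got1, which holds the element but was not on that list, had a log2 fold change of -0.06 (95% interval -0.15 to 0.02, edgeR adjusted p = 0.323). Asns, the asparagine synthetase and a textbook target of ATF4, held 1158, 1207 and 1226 CPM in control and 1170, 1095 and 1131 CPM with D-serine. The groups overlapped and it was not called (log2 fold change -0.08, edgeR adjusted p = 0.205); it is named after its values were seen.

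Pyruvate carboxylase (Pcx) and the mitochondrial PEP carboxykinase (Pck2) make and withdraw oxaloacetate. Pck2, on chromosome 14 from 56159103 to 56168854 on the plus strand, held 108, 109 and 104 CPM in control and 98.5, 96.8 and 95.7 CPM with D-serine. The groups did not overlap, but the difference was just outside the threshold (log2 fold change -0.14, SE 0.044, adjusted p = 0.0586 by edgeR). It was inside it with DESeq2 (adjusted p = 0.0458), without D-serine replicate 1 (edgeR, 0.0226) and with the length trend removed (edgeR, 0.00948), within a range of 0.00318 to 0.212. Pcx held 40.4, 39.6 and 42.1 CPM in control and 32.2, 36.0 and 39.2 CPM with D-serine. All D-serine values were lower, and the spread among them was the wider one (log2 fold change -0.19, SE 0.070, adjusted p = 0.109 by edgeR). The lowest value was that of D-serine replicate 1, and without it the log2 fold change was -0.11. Pck1, the cytosolic counterpart of Pck2, had at most 0.0269 CPM in any library.

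The 5 genes of the pyruvate dehydrogenase complex did not pass the test, and their 95% intervals ran from -0.16 to 0.18 on the log2 scale. They comprise the decarboxylase subunits Pdha1 and Pdhb, the acetyltransferase Dlat, the dehydrogenase Dld and the tethering protein Pdhx. Pdha1 held 207, 208 and 216 CPM in control and 203, 204 and 199 CPM with D-serine, without overlap (log2 fold change -0.06, edgeR adjusted p = 0.395). The other 4 overlapped between the groups. Pdha1 shares 603 exonic bases with Map3k15 on the opposite strand, but Map3k15 had a mean of only 21.7 counts against 7656. Of the regulators, 0 of 7 tested genes among the pyruvate carriers and the kinases and phosphatases of the complex were called by edgeR. Over all genes tested, 9.74% were called. An unadjusted p under 0.05 was found for 2 of the 7, beside 28.2% of all genes tested. The kinases Pdk3 and Pdk4 had no count in any library, which allows up to 0.0750 to 0.0923 CPM (3 counts per library).

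Among 12 enzymes of the cycle in the matrix, Idh3g alone was called (8.33%, against 9.74% of all genes). It encodes the gamma subunit of the NAD-dependent isocitrate dehydrogenase, a regulatory subunit of the enzyme, and lies on chromosome X from 71024302 to 71032236 on the minus strand. Its level was 45.6, 48.0 and 47.4 CPM in control and 59.8, 52.7 and 58.2 CPM with D-serine. All D-serine libraries exceeded all control libraries. The mean rose from 47.0 ± 1.30 to 56.9 ± 3.76 CPM (SD, n = 3 per group). By edgeR this was a log2 fold change of 0.28 with an SE of 0.058 and an adjusted p of 0.0158. Over the 17 alternatives its log2 fold change ran from 0.16 to 0.33 and its adjusted p from 0.00244 to 0.0769, and 11 kept the call. With the length trend removed the log2 fold change was 0.18 (edgeR adjusted p = 0.0213). That change is smaller by more than 1.5 times, and Idh3g, at 1331 bases, is among the shortest members. With D-serine replicate 1 left out as well, the log2 fold change was 0.16 and the adjusted p 0.0529.

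The partner subunits were not called. Idh3a, the catalytic alpha subunit, held 114, 121 and 121 CPM in control and 120, 114 and 116 CPM with D-serine, and Idh3b, the beta subunit, held 106, 114 and 113 CPM and 112, 110 and 105 CPM. Both overlapped between the groups, with 95% intervals of -0.12 to 0.08 for Idh3a and -0.13 to 0.08 for Idh3b on the log2 scale. With the length trend removed the log2 fold change of Idh3b was -0.11 (edgeR adjusted p = 0.0799). Per base of exon, Idh3g counts were 0.724, 0.718 and 0.711 of Idh3a counts in control and 0.897, 0.835 and 0.905 with D-serine. The same ratio of Idh3b to Idh3a was 1.48, 1.49 and 1.48 in control and 1.48, 1.53 and 1.43 with D-serine. These subunit ratios, chosen after the values were seen, are given without a test. Idh3b shares 5 exonic bases with Nop56 on the opposite strand. Nop56 had a mean of 23160 counts against 4088 for Idh3b, and the part of this overlap in the Idh3b counts was not tested.

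Isocitrate is also oxidised by NADP-dependent enzymes, Idh2 in mitochondria and Idh1 in the cytosol and peroxisomes. Idh2 held 77.8, 82.9 and 79.95 CPM in control and 96.7, 85.7 and 87.4 CPM with D-serine. The groups did not overlap, D-serine replicate 1 was the highest, and the gene was not called (log2 fold change 0.16, SE 0.055, adjusted p = 0.0730 by edgeR). It was called under upper quartile scaling (edgeR adjusted p = 0.0482) and library totals (0.0439), and not with the length trend removed (0.186, log2 fold change 0.09), within a range of 0.0439 to 0.515. Without D-serine replicate 1 its log2 fold change was 0.11. Idh1, from the list of other pathway genes, held 20.1, 21.9 and 20.2 CPM in control and 26.7, 24.5 and 25.5 CPM with D-serine. It rose by 23.2% without overlap (log2 fold change 0.30, SE 0.068, adjusted p = 0.0197 by edgeR) and kept the call in 12 of 17 alternatives, with adjusted p-values from 0.00694 to 0.0820. Within a library the ratio of Idh2 to Idh3a counts per base was 0.967, 0.969 and 0.937 in control and 1.13, 1.06 and 1.06 with D-serine (difference in log2 ratio 0.18, exact two-sided permutation p = 0.1, adjusted 0.2).

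The remaining cycle enzymes were not called in the reported fit. Citrate synthase (Cs) and the oxoglutarate dehydrogenase components Ogdh and Dlst lay lower in all D-serine libraries. So did the cytosolic aspartate aminotransferase Got1, which is not an enzyme of the cycle. The log2 fold changes of these genes lay between -0.10 and -0.06, with edgeR adjusted p-values from 0.190 to 0.323. Cs held 310, 318 and 319 CPM in control and 295, 310 and 294 CPM with D-serine, so the groups nearly touched. The succinyl-CoA ligase subunits Suclg1, Sucla2 and Suclg2, fumarase (Fh1) and mitochondrial malate dehydrogenase (Mdh2) overlapped between the groups, with log2 fold changes from -0.05 to 0.05. With the length trend removed, the log2 fold change of Ogdh was -0.03 and that of Suclg1 turned from 0.05 to -0.05. In that fit Cs (-0.11), Mdh2 (-0.15) and Got1 (-0.12) were called lower, at edgeR adjusted p-values of 0.039, 0.011 and 0.027. Of all genes tested, 15.8% passed there. The GTP-forming Suclg2 and the ATP-forming Sucla2 had about equal counts per base, with ratios of 0.960 to 1.02 in control and 0.967 to 1.12 with D-serine (exact two-sided permutation p = 0.6, adjusted 0.6). Of the other 9 cycle genes, Idh1 alone was called. The 4 succinate dehydrogenase subunits lay between -0.03 and 0.05 on the log2 scale.

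Outside the matrix, malate and aspartate carry reducing equivalents, and malic enzymes turn malate into pyruvate. Me1, the cytosolic malic enzyme that makes NADPH, lies on chromosome 9 from 86474970 to 86589947 on the minus strand. It held 153, 147 and 151 CPM in control and 139, 131 and 135 CPM with D-serine, without overlap. The mean fell from 150 ± 3.14 to 135 ± 3.97 CPM (SD, n = 3 per group). By edgeR this was a log2 fold change of -0.15 with an SE of 0.043 and an adjusted p of 0.0425. Me1 was the called member nearest the threshold: 9 of 17 alternatives kept the call, upper quartile scaling (edgeR, 0.0966), library totals (0.0870) and the omission of D-serine replicate 2 (0.0902) did not, and the range was 0.00059 to 0.158. It shares 30 exonic bases with A330041J22Rik, which had a mean of 3.17 counts.

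Me2, the mitochondrial NAD-dependent malic enzyme, held 107, 109 and 110 CPM in control and 109, 113 and 112 CPM with D-serine (log2 fold change 0.04, 95% interval -0.06 to 0.13). Per base, Me1 counts were 0.981, 0.920 and 0.947 of those of Me2 in control and 0.877, 0.798 and 0.822 with D-serine, a difference in log2 ratio of -0.19 (exact two-sided permutation p = 0.1, adjusted 0.2). Me3, a further mitochondrial malic enzyme, had 4 counts in all 6 libraries together and was not tested.

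Mdh1, the cytosolic malate dehydrogenase, held 199, 210 and 215 CPM in control and 243, 224 and 222 CPM with D-serine. The groups did not overlap and D-serine replicate 1 was the highest (log2 fold change 0.14, SE 0.048, adjusted p = 0.0787 by edgeR, range over the alternatives 0.0430 to 0.413). With the length trend removed its log2 fold change was 0.08 (edgeR adjusted p = 0.160). Relative to its mitochondrial counterpart Mdh2, its counts per base were 0.480, 0.501 and 0.491 in control and 0.553, 0.571 and 0.557 with D-serine. No D-serine library overlapped control in this ratio, and the difference in log2 ratio was 0.19 (exact two-sided permutation p = 0.1, adjusted 0.2) and 0.23 with the length trend removed.

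Neither aspartate aminotransferase was called in the reported fit. Got2, the mitochondrial form and the most strongly expressed member per base of exon, held 963, 988 and 1002 CPM in control and 915, 939 and 918 CPM with D-serine, without overlap (log2 fold change -0.09, SE 0.037, adjusted p = 0.125 by edgeR). The ratio of Got1 to Got2 counts per base was 0.264 to 0.276 in control and 0.269 to 0.281 with D-serine (difference in log2 ratio 0.03, exact two-sided permutation p = 0.5, adjusted 0.556). Acly, which splits exported citrate into acetyl-CoA for lipid synthesis, held 598, 594 and 624 CPM in control and 584, 646 and 633 CPM with D-serine. The groups overlapped (log2 fold change 0.04, 95% interval -0.06 to 0.13).

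**Figure D3:**
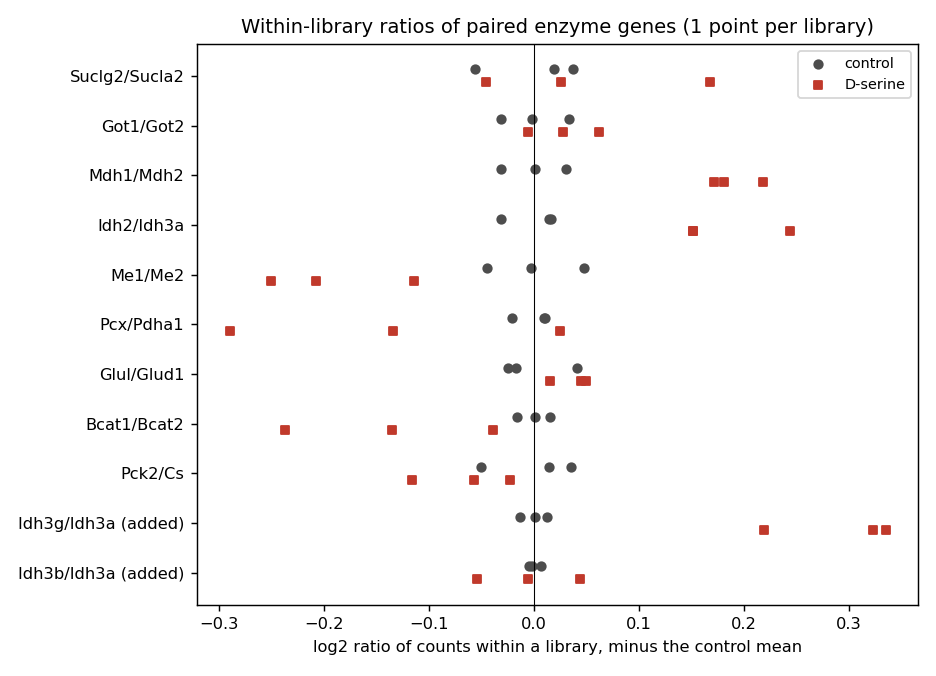
Log2 ratio of the counts of paired enzyme genes within each library, minus the control mean of that pair (x axis), for 9 of the 10 pairs compared and 2 added after the values were seen. Grey circles are control and red squares D-serine libraries: Mdh1/Mdh2, Idh2/Idh3a, Me1/Me2 and Bcat1/Bcat2 do not overlap between the groups, and Got1/Got2 and Glul/Glud1 do.

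Bcat1 and Bcat2 start the breakdown of branched-chain amino acids by passing their amino group to alpha-ketoglutarate, in the cytosol and in mitochondria. Bcat1, on chromosome 6 from 144942355 to 145024677 on the minus strand, held 500, 537 and 536 CPM in control and 475, 464 and 476 CPM with D-serine. The groups did not overlap, and control replicate 1 was the nearest to the D-serine libraries. The mean fell from 525 ± 21.2 to 472 ± 6.43 CPM (SD, n = 3 per group). By edgeR this was a log2 fold change of -0.15 with an SE of 0.042 and an adjusted p of 0.0371. With 8102 exonic bases Bcat1 is the longest member, and with the length trend removed its log2 fold change was -0.06 (edgeR adjusted p = 0.428). With the trend removed and D-serine replicate 1 left out, the fold change was -0.14 (edgeR adjusted p = 0.0182). In all, 7 of 17 alternatives kept the call, over a range of 0.00637 to 0.452. Bcat2 held 40.8, 43.4 and 44.3 CPM in control and 45.7, 41.6 and 39.9 CPM with D-serine and was not called (log2 fold change -0.02, 95% interval -0.15 to 0.12). The ratio of Bcat1 to Bcat2 counts per base was 3.29 to 3.37 in control and 2.83, 3.03 and 3.24 with D-serine (difference in log2 ratio -0.14, exact two-sided permutation p = 0.1, adjusted 0.2), and the difference was -0.09 without D-serine replicate 1 and -0.0024 with the length trend removed. Bcat2 shares 50 exonic bases with 0610005C13Rik. Of 8 genes that degrade the resulting keto acids or regulate that breakdown, edgeR called 0, against 9.74% of all genes tested. An unadjusted p under 0.05 was found for 2 of the 8, beside 28.2% of all genes tested. These were both subunits of methylcrotonyl-CoA carboxylase (Mccc1, log2 fold change 0.35, edgeR adjusted p = 0.0992, and Mccc2, 0.30 and 0.163).

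Over the 41 other genes of these pathways, 35 were tested and 3 were called, Idh1 among them. That is 8.57% of the 35, against 9.74% of all genes tested. Their median log2 fold change was 0.043.

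Across the 32 members, longer genes had lower fold changes. The rank correlation (Spearman's rho) of fold change with exon length was -0.534, beside -0.291 over all genes tested, where genes share the same libraries and are not independent. With each library's length trend removed it was -0.187 for the members. In that fit the median log2 fold change was -0.066 for the members and -0.022 for all genes tested. In the reported fit these medians were -0.022 and 0.0053. With the trend removed 10 members were called, 1 higher and 9 lower, against 15.8% of all genes tested. The 4 genes Idh3g, Me1, Gpt2 and Aldh18a1 were among them, at adjusted p-values of 0.0213, 0.0064, 0.0022 and 0.0032, and Bcat1 was not. The others were Pck2 (log2 fold change -0.16), Pcx (-0.18), Cs (-0.11), Mdh2 (-0.15), Got1 (-0.12) and Got2 (-0.13), all lower.

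**Figure D4:**
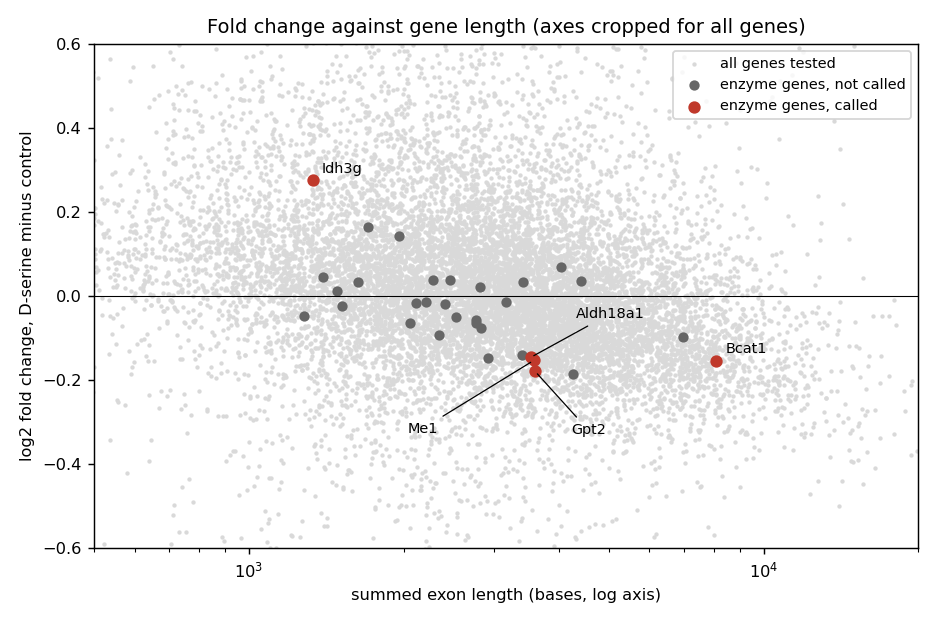
Log2 fold change (y axis, D-serine minus control) against summed exon length in bases (x axis, log scale) for the 32 tested enzyme genes (dark points, called ones red) over all genes tested (light points, cropped to the axes). Idh3g, at 1331 bases, lies at the short end and Bcat1, at 8102 bases, at the long end, while Me1, Gpt2 and Aldh18a1 lie together at 3527 to 3596 bases.

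Within groups the members varied little. The median coefficient of variation of a member between libraries of a group was 3.05%, from 1.495% to 10.3%, beside 4.18% for the 6186 genes tested at least as strongly expressed as the weakest tested member. Each tested member had between 1097 and 37294 counts in every library. Per kilobase of exon, control levels ran from 9.53 CPM for Pcx to 420 CPM for Got2. Of the 32 members, 27 had a 95% interval of the log2 fold change wholly within 0.25 of 0; the others were Idh3g, Gpt2, Idh2, Pcx and Pycr1.

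**Figure D5:**
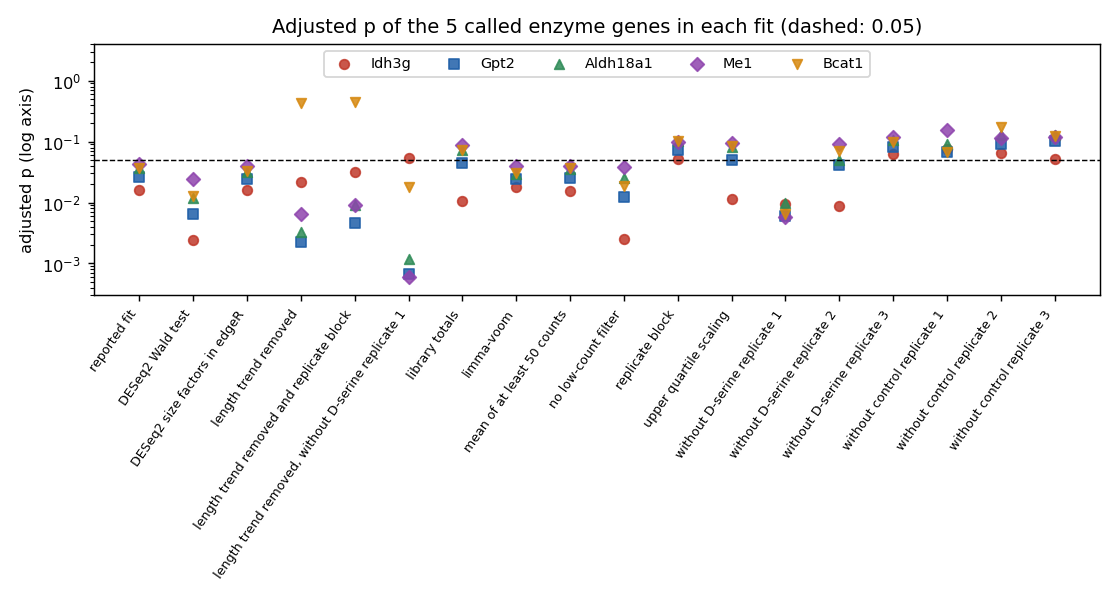
Adjusted p (y axis, log scale) of the 5 called enzyme genes in the reported edgeR fit (leftmost) and in each of the 17 alternatives (x axis), with the threshold of 0.05 dashed. All 5 lie above the line with the replicate block, without control replicate 1, 2 or 3 and without D-serine replicate 3, and all 5 lie below it without D-serine replicate 1.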

How the data were processed

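Poly(A) RNA of 3 control and 3 D-serine libraries was sequenced as paired ends from stranded TruSeq libraries, per the labels' protocols. The authors deposited raw counts per gene from featureCounts, with the summed exon length in bases, per the file headers. The submitters' processing notes name Trim Galore, HISAT2, featureCounts, Subread and DESeq2 and the builds GRCm38 and mm10. However, 1 of the 33 members started at its RefSeq GRCm38 position and the table holds chrY_random, so gene coordinates are printed as deposited, 1-based, from a build the table does not name. The strand setting and the handling of multi-mapping reads are not given in the sources used here, so genes with close copies or overlapping exons are uncertain.

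Columns were matched to samples by treatment and number. Genes were kept by filterByExpr (13366), scaled by trimmed mean of M values and tested with edgeR 4.0.16 (R 4.3.3) on all genes, two-sided, with Benjamini-Hochberg adjustment and a threshold of 0.05. CPM are deposited counts per 1000000 of the scaled library size. Standard errors are the log2 fold change divided by the square root of F, and 95% intervals use edgeR's degrees of freedom. The length trend is a natural spline with 5 degrees of freedom per library, removed as offsets. For depth between the groups, an exact two-sided permutation test gave p = 0.4. The reported edgeR fit was checked on simulated counts, which held no length trend and no library standing apart. The other fits and the permutation tests were not checked in this way. Exon overlaps used bedtools 2.31.1.

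The members and lists were chosen with earlier results of these data known. By rule, members with an adjusted p under 0.05, the next 3 by p, and called genes of the other lists are given in full, except some that are not reported here. The 17 alternatives were DESeq2 1.42.0, limma-voom (limma 3.58.1), other scalings and filters (including a mean of at least 50 counts), the replicate number as a block, the length trend and leaving out each library.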

Additional observations from a re-analysis of the deposited data

How the results depend on the processing

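The number of called members was 5, and 3 under upper quartile scaling, 10 with the length trend removed, 8 with that and the replicate block, and 9 with it and without D-serine replicate 1. Of all genes, 9.74% passed in the reported fit and 9.92%, 15.8%, 14.1% and 15.5% in these 4. Leaving out 1 library gave from 0 to 6 members, while from 0.501% to 12.5% of all genes passed. The 6 were called without D-serine replicate 1, where 12.5% of all genes passed. For the other pathway genes the reported count was 3, against 6 with the length trend removed, 8 with that and without D-serine replicate 1, and from 0 to 6 when 1 library was left out. The cause was not tested. With the replicate block, 0 members and 0 other pathway genes were called, with 9 members at an unadjusted p under 0.05, while 2.23% of all genes passed the adjusted threshold. In the reported fit 10 members and 28.2% of all genes had an unadjusted p under 0.05. Same-numbered libraries did not deviate together (correlations of -0.0687, 0.0197 and -0.0187), beside -0.0761 to 0.0877 for pairs of unlike number. The labels do not say whether the numbers pair the libraries, and correlations from 3 libraries per group cannot decide it. The ratios without overlap numbered 5 of 10, from 5 to 7 with 1 library left out, 4 with the length trend removed, and 7 had 1 sign in all 3 same-numbered differences. Leaving out a library cannot make separated groups overlap, so that count could not fall below 5. The share without overlap among ratios of other gene pairs was not computed. No ratio could reach an exact p under 0.1. Depth limits Me3, with 4 counts.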
